A study of Mus musculus with 10 samples.

Results

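The genes described here code for the sodium pump of the plasma membrane and its small regulators: the FXYD family members *Fxyd1*, *Fxyd2*, *Fxyd5* and *Fxyd6* and the beta subunits *Atp1b1* and *Atp1b3*. These 6 genes were taken from the 29183 genes that the *Grem1*-lineage and the *Lepr*-lineage count tables shared, and they were chosen because their levels in these same cells differed between lineages and cell groups. Their levels are therefore described without a test. *Fxyd2* was at its highest in *Grem1*-lineage cells rich in chondromodulin (*Cnmd*) transcripts, *Fxyd5* and *Fxyd1* were at their highest in *Grem1*-lineage cells rich in articular transcripts, and *Lepr*-lineage cells had *Fxyd5* and *Fxyd1* but no UMI of *Fxyd2*. *Atp1b3* held 88.1% to 96.3% of the beta subunit UMIs in these 3 groups.

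The Na,K-ATPase moves sodium out of the cell and potassium in, against their gradients, at the cost of ATP. Its alpha subunit carries the catalytic cycle, its beta subunit is a glycoprotein needed to fold the alpha subunit and bring it to the membrane, and FXYD proteins are short single-span membrane proteins that bind the complex and tune its affinity for ions or its turnover. FXYD1 (phospholemman) is known from heart and skeletal muscle, FXYD2 (the gamma subunit) from the kidney tubule, FXYD5 (dysadherin) from epithelia, where it also affects cell adhesion, and FXYD6 (phosphohippolin) from brain and inner ear. Chondrocytes live in a matrix whose fixed negative charge draws in sodium, and pump activity sets their intracellular sodium, potassium and volume.

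Single cells from the hind limbs of C57BL/6 mice were sorted into wells and their transcripts counted with unique molecular identifiers (UMIs, random tags that mark single captured molecules). *Grem1-creERT;Rosa-TdT* mice (*Grem1-TdT*) carry a tamoxifen-inducible Cre under *Grem1* control and a TdTomato reporter, were given tamoxifen chow for 2 weeks from 5 to 6 weeks of age, and their articular cartilage and growth plate were excised and sorted for DAPI- TdT+ cells. *Lepr-cre;Rosa-TdT* mice (*Lepr-TdT*) were matched in age and express Cre constitutively from the *Lepr* locus, so that any cell with a past of *Lepr* expression is labelled, and their TdT+ cells came from whole bones after CD45, Ter119 and CD31 positive cells were gated out. All groups shared the reporter allele. Tamoxifen chow is stated for *Grem1-TdT* only, and the sources used here do not say which tissue or how many mice a plate held.

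There were 8 plates of *Grem1-TdT* cells (numbered 1, 2 and 4 to 9) and 2 of *Lepr-TdT* cells. Of 768 *Grem1-TdT* wells, 684 had at least 350 genes with a UMI, 76 to 94 a plate, with 133289 to 179071 UMIs a plate and a median of 1472.5 a cell. Of 162 *Lepr-TdT* wells, 160 were kept (74 and 86), with 64310 and 59981 UMIs in the shared genes and a median of 505 a cell. Their 350 genes were counted over all 50508 genes listed for that lineage, a looser limit than over the 29183 shared genes. Lineage therefore moved with tissue, sort and depth, and these cannot be told apart. The same well barcodes recur from plate to plate, 96 on all *Grem1-TdT* plates and 70 on all 10, as a plate layout gives. *Cytl1*, a cartilage transcript, had a UMI in all 768 *Grem1-TdT* wells and in 62 of 162 *Lepr-TdT* wells, where all 360 UMIs in kept cells were on plate 1.

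Each *Grem1-TdT* cell was placed by its own transcripts, since no label gives its tissue. The 414 cells with more UMIs of *Clu*, *Cilp* and *1500015O10Rik* together than of *Cnmd* were called articular-like (43 to 68 a plate), and the other 270, which include 4 ties, *Cnmd*-rich (26 to 40 a plate). A margin of at least 2-fold between the sides kept 392 and 243 cells. The summed level of the articular marker list was 47219 to 67047 CPM (counts per 1e6 UMIs) in articular-like cells, 3653 to 7614 in *Cnmd*-rich cells and 2731 to 3974 in *Lepr-TdT* cells. The chondrocyte list ran from 156177 to 216738 CPM and from 115698 to 171765 CPM in the 2 *Grem1-TdT* groups and from 85.3 to 4915 CPM in *Lepr-TdT* cells, where *Col9a1* and *Epyc* were at 0. The marrow stromal list (4 of 6 genes listed) was at 19143 to 25921 CPM in *Lepr-TdT* cells and at most 111 CPM elsewhere. Median depth was 1217 UMIs in articular-like and 2218.5 in *Cnmd*-rich cells. Group values below are sums of UMIs over the cells of a group on a plate, scaled to CPM, and in such sums a larger share of expressing cells and more transcript per cell look the same.

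The FXYD family is named for a stretch that its members share at the membrane surface. The 4 coding windows that hold it are shown because they are what makes the members of one family. Where in a transcript the counted reads fell is not given, so the windows do not show how well the counts tell the transcripts apart. Each window is 36 coding bases from GRCm38 with GENCODE vM21 transcripts, on the transcript's own strand, with the 12 bases of the F, X, Y and D codons in capitals. Each is interrupted by an intron in the genome, so the coordinates span more than 36 bases.
*Fxyd1*, chr7:31053461-31053914, minus strand: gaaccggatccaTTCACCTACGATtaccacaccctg
*Fxyd2*, chr9:45408123-45408313, plus strand: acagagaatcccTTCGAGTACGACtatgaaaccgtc
*Fxyd5*, chr7:31035270-31035407, minus strand: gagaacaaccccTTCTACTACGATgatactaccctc
*Fxyd6*, chr9:45390651-45390790, plus strand: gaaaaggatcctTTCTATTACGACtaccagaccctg

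*Fxyd1* and *Fxyd6* were the closest pair, with 28 of 36 bases identical, and the other pairs had 21 to 24. *Fxyd1* shared the fewest with *Fxyd2* and *Fxyd5*, 21 each. The window was found in 10 of 12 coding transcripts of *Fxyd1*, 2 of 4 of *Fxyd2*, 8 of 11 of *Fxyd5* and 2 of 2 of *Fxyd6*. The genes lie in 2 clusters: *Fxyd1* (chr7:31051678-31057199) and *Fxyd5* (chr7:31032722-31042481) are 9196 bases apart on the minus strand with *Fxyd7* between them, and *Fxyd6* (chr9:45370185-45396159) ends 3509 bases before *Fxyd2* (chr9:45399669-45410278) on the plus strand. *Atp1b3* lies elsewhere on chromosome 9 (chr9:96332655-96364442) and *Atp1b1* on chromosome 1 (chr1:164437109-164458355), both on the minus strand. A microRNA gene, *Mir7050*, lies within exons of *Fxyd5*, and *Nme7* overlaps *Atp1b1* on the opposite strand. Whether counting used strand is not given in the sources used here.

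*Fxyd2*, the gamma subunit gene, was the 1 member with its higher level in *Cnmd*-rich cells. Its *Cnmd*-rich level was lowest at 3706, in the median 6183 and highest at 8031 CPM over the 8 plates, a mean of 5817 ± 1617 (SD, n = 8). In articular-like cells it was lowest at 551, in the median 857 and highest at 4130 CPM, a mean of 1391 ± 1196 (SD, n = 8). The highest articular-like value was that of plate 9, the next was 1881 CPM on plate 6, and plate 9 alone made the groups overlap. Without plate 9 the means were 5501 and 1000.0 CPM. On every plate the articular-like value was the lower one, and the mean was 4.18 times higher in *Cnmd*-rich cells.

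In UMIs, *Fxyd2* ran on plates 1, 2, 4, 5, 6, 7, 8 and 9 at 418, 325, 265, 627, 622, 379, 456 and 789 in *Cnmd*-rich cells and at 40, 44, 41, 49, 85, 59, 82 and 236 in articular-like cells. A single *Cnmd*-rich cell of plate 6 held 84 of them. *Lepr-TdT* cells had 0 and 0. Against a floor of 3 UMIs on each *Lepr-TdT* plate, *Fxyd2* was at least 162-fold higher in *Cnmd*-rich and at least 38.7-fold higher in articular-like cells. The share of cells with an *Fxyd2* UMI was 97.0% (262 of 270) in *Cnmd*-rich, 67.9% (281 of 414) in articular-like and 0 of 160 in *Lepr-TdT* cells, where a count of 0 allows up to 1.88%. These limits and all intervals cover counting error only.

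Cells differed in depth, so each was also thinned to 529 UMIs, which left out 1, 1 and 83 shallower cells. *Fxyd2* was then found in 87.0% of *Cnmd*-rich, 41.4% of articular-like and none of 77 *Lepr-TdT* cells. For comparison, *Epyc*, a growth plate cartilage proteoglycan gene, was found in 36.8% of the thinned *Cnmd*-rich and 2.66% of the thinned articular-like cells of the same plates. *Cxcl12*, a marrow stromal gene, was found in 0.743% and 1.45% of them. The part of free transcripts in the articular-like *Fxyd2* share was not tested. On plate 9, 50 of 52 articular-like cells had an *Fxyd2* UMI. The same cells had 209.998 CPM of *Epyc* against 13.4 to 88.5 CPM on the other plates, and 7997 CPM of *Cnmd* against 3212 to 6112 CPM. The part of these in the *Fxyd2* value of plate 9 was not tested.

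*Fxyd5*, the dysadherin gene, ran the other way. Its articular-like level was lowest at 1577, in the median 1962 and highest at 2404 CPM (1984 ± 266, SD, n = 8), and its *Cnmd*-rich level was lowest at 262, in the median 482 and highest at 662 CPM (468 ± 179, SD, n = 8). The 2 sets of plates did not overlap, and the mean was 4.24 times higher in articular-like cells. In *Lepr-TdT* cells it was at 658 and 378 CPM, within the *Cnmd*-rich range and below every articular-like plate. On *Lepr-TdT* plate 1, 1 cell held 18 of the 56 UMIs, whereas no cell of plate 2 held more than 7 of its 31. The *Lepr-TdT* level includes cells with osteoblast or haematopoietic transcripts, which are taken up below. *Lepr-TdT* plate 1 also held 360 UMIs of *Cytl1*, 49 of *Cilp* and 61 of *1500015O10Rik*, against 0, 0 and 7 on plate 2. *Fxyd5* and *Fxyd6* had more UMIs on plate 1 than on plate 2, and *Fxyd1* and *Atp1b3* had fewer. The part of cells or transcripts of cartilage in these *Lepr-TdT* levels was not tested. After thinning, 58.1% of articular-like, 18.6% of *Cnmd*-rich and 24.7% of *Lepr-TdT* cells had an *Fxyd5* UMI.

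*Fxyd1*, the phospholemman gene, had the same order at a smaller ratio. Articular-like plates were lowest at 642, in the median 829 and highest at 1143 CPM (857 ± 197, SD, n = 8), and *Cnmd*-rich plates were lowest at 250, in the median 348 and highest at 523 CPM (386 ± 103, SD, n = 8). These did not overlap, at a ratio of means of 2.22. *Lepr-TdT* plates stood at 317 and 415 CPM, inside the *Cnmd*-rich range, and the ratio of *Cnmd*-rich to *Lepr-TdT* was 1.05. Thinned shares of cells with a UMI were 33.4%, 18.6% and 26.0% in articular-like, *Cnmd*-rich and *Lepr-TdT* cells.

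*Fxyd6*, the phosphohippolin gene, lay further apart between the lineages than between the cell groups. It was at 251, 451 and 541 CPM (lowest, median, highest) in articular-like cells and at 120.0, 216 and 364 CPM in *Cnmd*-rich cells, with means of 434 ± 99.8 and 235 ± 74.4 (SD, n = 8 each). The plates of the 2 groups overlapped, yet the articular-like value was the higher on 8 of 8 plates. *Lepr-TdT* cells had 94.1 and 24.4 CPM, from 8 and 2 UMIs, below every *Grem1-TdT* plate in both groups. The articular-like mean was 7.32 times and the *Cnmd*-rich mean 3.97 times that of *Lepr-TdT* cells.

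*Atp1b3*, the beta 3 subunit gene, varied least between the *Grem1-TdT* groups. It was at 264, 471 and 700.5 CPM (lowest, median, highest) in articular-like and at 222, 292 and 594 CPM in *Cnmd*-rich cells, with means of 474 ± 146 and 351 ± 126 (SD, n = 8 each). The plates overlapped over most of their range, and articular-like was higher on 6 of 8 plates. *Lepr-TdT* plates had 82.3 and 171 CPM, from 7 and 14 UMIs, both below the lowest *Grem1-TdT* plate of either group. Thinned shares of cells with a UMI were 22.8%, 19.7% and 7.79% in articular-like, *Cnmd*-rich and *Lepr-TdT* cells. *Atp1b1*, the beta 1 subunit gene and the usual partner in kidney and heart, had 1 UMI in all, in an articular-like cell of plate 1. None was seen in 270 *Cnmd*-rich and 160 *Lepr-TdT* cells, which allows shares of up to 1.11% and 1.88% of cells with a UMI, so its level could not be compared at this depth.

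**Figure D1:**
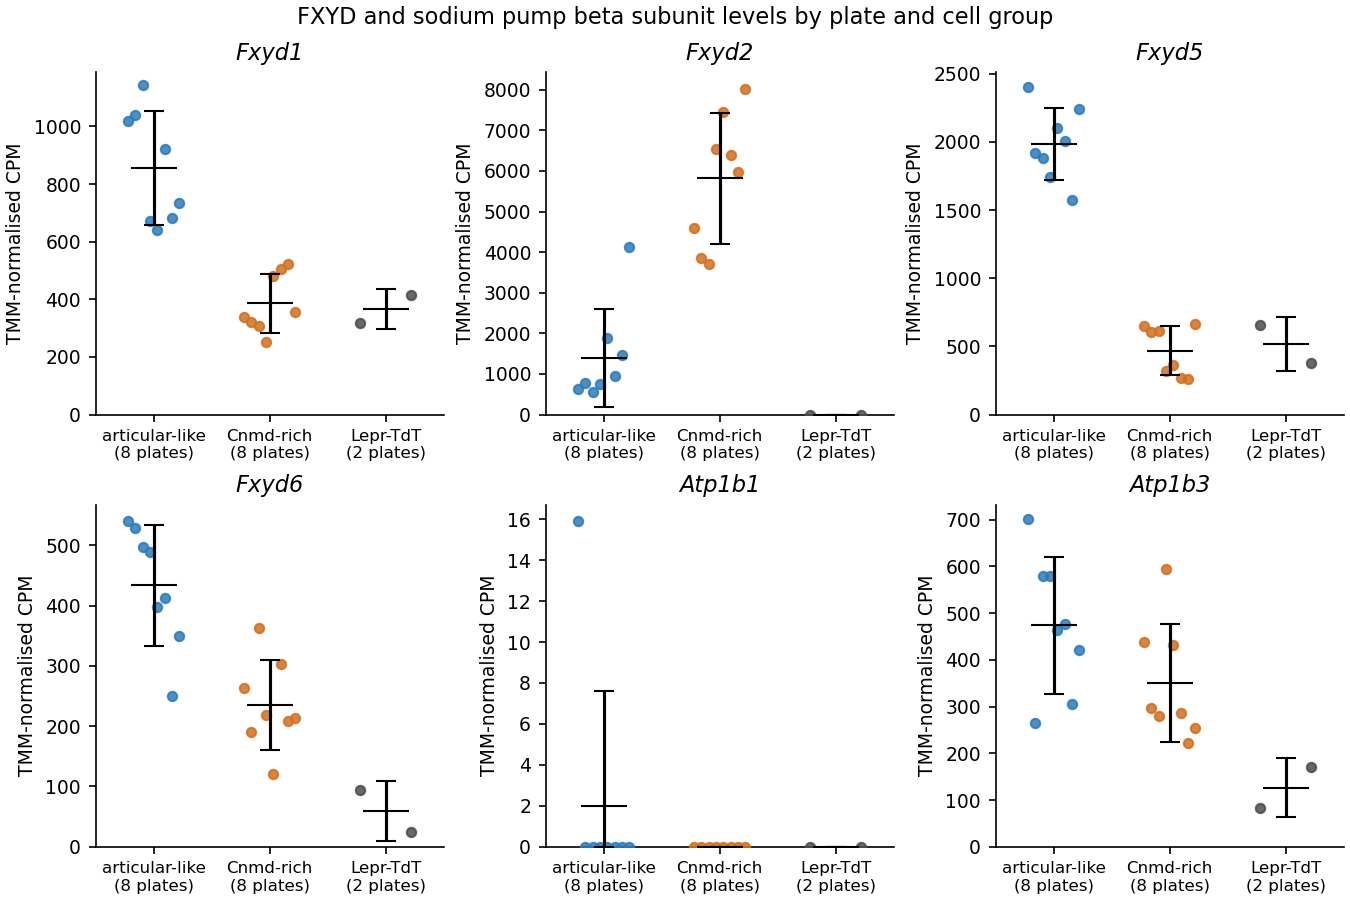
Level in CPM (vertical axis) of the 6 genes on each plate, by cell group. Each point is a plate, and bars give the mean and SD. *Fxyd2* is highest in *Cnmd*-rich cells (mean 5817 CPM) and at 0 on both *Lepr-TdT* plates, and *Fxyd5* of every articular-like plate lies above that of every *Cnmd*-rich plate.

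Ordered by level, *Fxyd2* went from *Cnmd*-rich over articular-like to *Lepr-TdT* cells. *Fxyd5* and *Fxyd1* went from articular-like cells to the other groups, which did not differ beyond their spread, and *Fxyd6* and *Atp1b3* went from articular-like over *Cnmd*-rich to *Lepr-TdT* cells, with the first neighbours overlapping. In the fit of articular-like against *Cnmd*-rich sums, 440 of 1071 genes tested (41.1%) passed an adjusted p of 0.05, 224 (20.9%) higher and 216 (20.2%) lower in articular-like cells, and 13.9% did not overlap between groups. Of the members 5 of 6 entered that fit, all 5 passed (4 higher, 1 lower), and *Fxyd1* and *Fxyd5* did not overlap. Their log2 differences were 2.26 for *Fxyd5* (SE 0.21), 1.34 for *Fxyd1* (SE 0.18), 1.08 for *Fxyd6* (SE 0.21), 0.62 for *Atp1b3* (SE 0.21) and -1.86 for *Fxyd2* (SE 0.36). Since the genes were chosen on this contrast, nothing is read from these counts. The difference of *Atp1b3* was 0.27 without TMM scaling and was then not called.

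Over whole plates, *Grem1-TdT* and *Lepr-TdT* did not overlap for 5 of the members. *Fxyd2* ran from 2360 to 6758 CPM against 0, *Fxyd5* from 898 to 1459 against 348 and 600.0, *Fxyd1* from 438 to 825 against 289 and 382, *Fxyd6* from 225 to 486 against 22.5 and 85.7, and *Atp1b3* from 283 to 612 against 75.0 and 157 CPM. The ratios of means, *Grem1-TdT* to *Lepr-TdT*, were 1.88 for *Fxyd1*, 2.48 for *Fxyd5*, 6.25 for *Fxyd6* and 3.72 for *Atp1b3*, and the place of *Fxyd5* among them changed once cells with osteoblast or haematopoietic transcripts were left out. In this fit 851 of 2944 genes (28.9%) were called, 358 (12.2%) higher and 493 (16.7%) lower in *Lepr-TdT*, and 37.9% did not overlap. Of the members, 5 of 6 were tested and 4 called, all lower in *Lepr-TdT*: *Fxyd2*, *Fxyd5* (log2 difference -1.09, SE 0.30), *Fxyd6* (-2.39, SE 0.46) and *Atp1b3* (-1.67, SE 0.41). *Fxyd1* had -0.68 (SE 0.29) and was not called, and nothing is read from these counts either.

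Some cells held transcripts of other cell types. The osteoblast list (5 of 6 genes listed) ran from 148 to 40845 CPM in articular-like, 434 to 19329 in *Cnmd*-rich and 646 to 6984 in *Lepr-TdT* cells, and the haematopoietic list (8 of 9 listed) from 0 to 2945, 0 to 3697 and 4445 to 5365 CPM. Without the cells holding at least 10 osteoblast or 5 haematopoietic UMIs, which were 81 of 684 *Grem1-TdT* and 27 of 160 *Lepr-TdT* cells, the lineage difference of *Fxyd5* was -2.30 (SE 0.33) in place of -1.09. The differences of *Fxyd6* and *Atp1b3* were then -2.17 and -1.65, that of *Fxyd1* -0.37, and between the *Grem1-TdT* groups *Fxyd2* had -1.83 and *Fxyd5* 2.36. The muscle, endothelial and erythroid lists were at most 382, 88.1 and 52.9 CPM on any plate of any group.

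The mix of FXYD transcripts within a group puts these levels together. UMI counts carry no scaling for gene length, so shares are compared for 1 gene between groups. *Fxyd2* made up 81.9% of the 4738 FXYD UMIs of *Cnmd*-rich cells (74.2% to 86.3% by plate), 25.8% of the 2466 of articular-like cells (12.7% to 49.4%) and none of the 159 of *Lepr-TdT* cells. *Fxyd5* made up 6.67%, 38.6% (26.8% to 50.2%) and 54.7% (60.9% and 46.3% by plate). *Fxyd1* made up 5.26%, 17.0% and 38.4% (29.3% and 50.7%). The FXYD mix of *Lepr-TdT* cells was thus *Fxyd5* and *Fxyd1* with 10 UMIs of *Fxyd6* and 1 of *Fxyd4*, whereas articular-like cells carried all of *Fxyd5*, *Fxyd2*, *Fxyd1*, *Fxyd3* (9.41%) and *Fxyd6* (8.56%). These shares include all kept cells, also the 27 of 160 *Lepr-TdT* cells with osteoblast or haematopoietic transcripts, and were not recomputed without them. The lineage difference of *Fxyd5* was larger without such cells, as given above. Cells of *Lepr-TdT* plate 1 with cartilage transcripts were not taken out either. The whole family summed to 7111 ± 1660 CPM in *Cnmd*-rich, 5194 ± 1346 in articular-like (SD, n = 8 each) and 817 and 1082 CPM in *Lepr-TdT* cells.

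**Figure D2:**
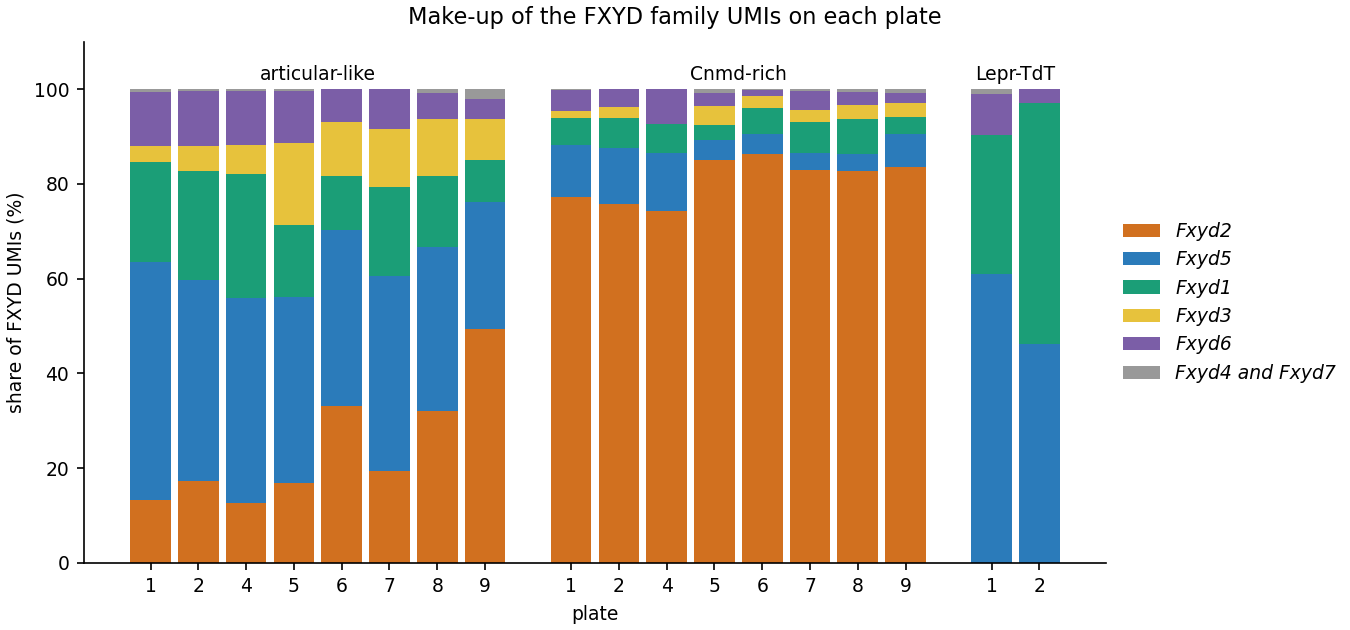
Share of the FXYD family's UMIs (percent, vertical axis) held by each FXYD gene on each plate, by cell group. *Fxyd2* takes 74.2% to 86.3% on the *Cnmd*-rich plates, and the 2 *Lepr-TdT* plates are filled almost wholly by *Fxyd5* and *Fxyd1*. All kept cells are included, also those with osteoblast or haematopoietic transcripts.

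The beta subunits that go with these regulators changed less in kind. *Atp1b3* held 96.3% of 241 beta subunit UMIs in articular-like, 88.1% of 269 in *Cnmd*-rich and 95.5% of 22 in *Lepr-TdT* cells. By plate its share was 91.5% to 100% in articular-like and 77.3% to 97.3% in *Cnmd*-rich cells. *Atp1b2*, the beta 2 subunit gene known from glia, had 8, 32 and 1 UMIs, and the single *Atp1b1* UMI completes the count. From these few UMIs, *Atp1b2* was at 48.2 ± 23.4 CPM in *Cnmd*-rich and 14.9 ± 19.6 CPM in articular-like cells (SD, n = 8 each). The ratio of means was 3.25, in the direction of *Fxyd2*. The plates overlapped, and the articular-like value was the higher on 1 of 8 plates. *Atp1b4* had no UMI.

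To see whether the level followed the degree of articular character, cells were binned by the articular share of their UMIs of the 4 splitting genes. From at most 10% (48 cells, 3 plates used) over 10 to 50% (222 cells) and 50 to 90% (182 cells) to above 90% (232 cells), *Fxyd2* was at 6114 ± 656, 5638 ± 1459, 1274 ± 1104 and 1230 ± 925 CPM (mean and SD over plates, scaled to library size only, over plates with at least 10 cells in the bin). The *Fxyd2* means of the lower 2 bins and those of the upper 2 bins lay within their spread of each other, and these 4 wide bins do not show how the level runs inside them. *Fxyd5* was at 252 ± 104, 567 ± 322, 1550 ± 375 and 1968 ± 339 CPM and *Fxyd1* at 308 ± 49.7, 396 ± 112, 836 ± 250 and 773 ± 218 CPM. *Fxyd6* was at 164 ± 30.9, 267 ± 98.9, 362 ± 183 and 431 ± 148 CPM, while *Atp1b3* stayed within its spread at 414 ± 59.3, 364 ± 131, 415 ± 164 and 439 ± 152 CPM. The means of the lowest bin come from fewer plates than the others. Pooled over all cells of the lowest and the next bin, *Fxyd2* was at 5662 and 6014 CPM and *Fxyd5* at 349 and 516 CPM.

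**Figure D3:**
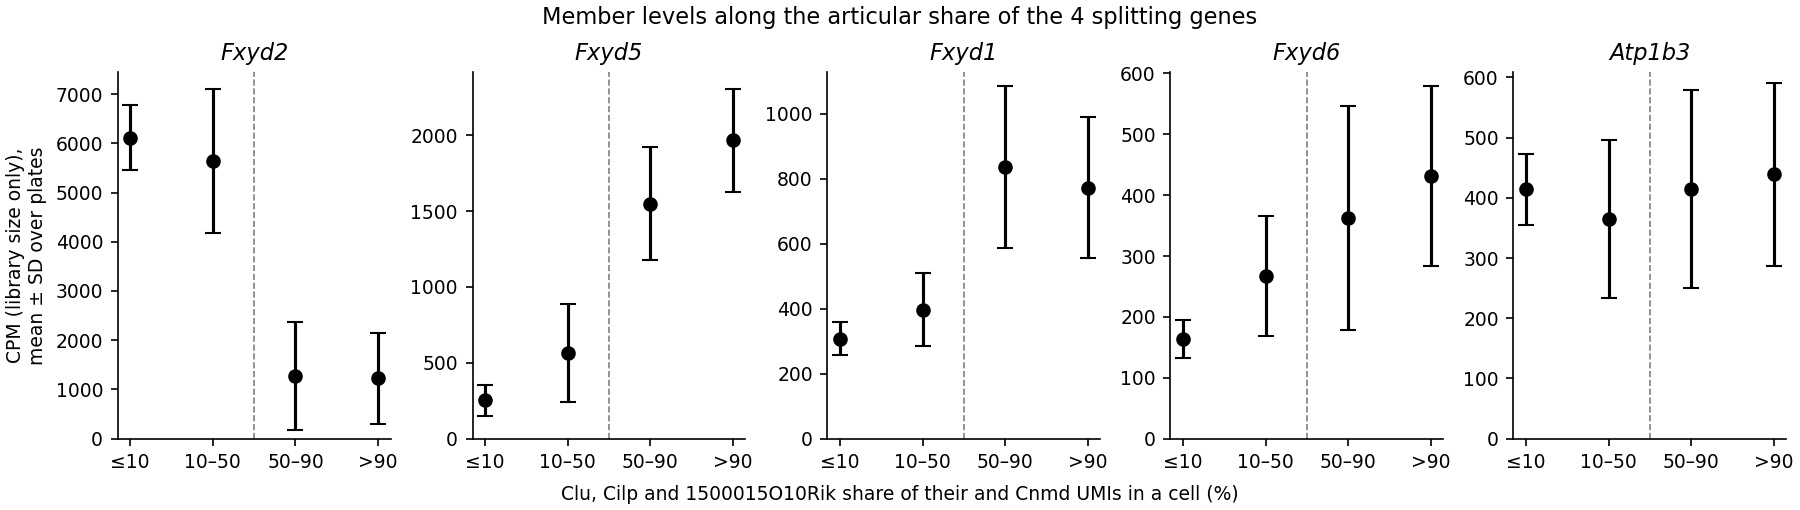
Level in CPM (vertical axis, library size only) of 5 members, *Atp1b1* left out, in *Grem1-TdT* cells binned by the articular share of *Clu*, *Cilp*, *1500015O10Rik* and *Cnmd* UMIs (horizontal axis, percent). Points are means over plates with at least 10 cells in the bin (3 plates in the lowest bin, 8 in the others). Bars give the SD, and the dashed line is the split between the groups. The *Fxyd2* mean is 5638 CPM in the 10 to 50% bin and 1274 CPM in the 50 to 90% bin, and that of *Fxyd5* goes from 252 in the lowest to 1968 CPM in the highest bin.

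Which regulator went with which beta subunit was also asked cell by cell. Within a plate and cell group, the log odds ratio (natural log, 0.5 added to each count) of finding an *Atp1b3* UMI and a UMI of a given FXYD gene in the same thinned cell was computed, and its mean over 8 plates was compared with 0 by a two-sided exact sign-flip permutation test (smallest possible p 0.0078; 8 tests). In articular-like cells the means were -0.10 ± 0.61 for *Fxyd1*, -0.15 ± 0.69 for *Fxyd2*, 0.15 ± 0.59 for *Fxyd5* and 0.27 ± 0.67 for *Fxyd6* (SD, n = 8; exact permutation p 0.26 to 0.64). In *Cnmd*-rich cells they were 0.30 ± 1.08, -0.72 ± 0.95, 0.19 ± 0.64 and 0.56 ± 1.22 in the same order. The largest of these, that of *Fxyd2* in *Cnmd*-rich cells, was below 0 on 6 of 8 plates (exact permutation p = 0.078, Benjamini-Hochberg adjusted p = 0.60). None of the 8 passed, nor had any an unadjusted p under 0.05, with SDs as large as or larger than most means, so a joint or exclusive use of *Atp1b3* with a FXYD gene was not detectable at this depth. *Atp1b1* gave no value, at 1 UMI.

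**Figure D4:**
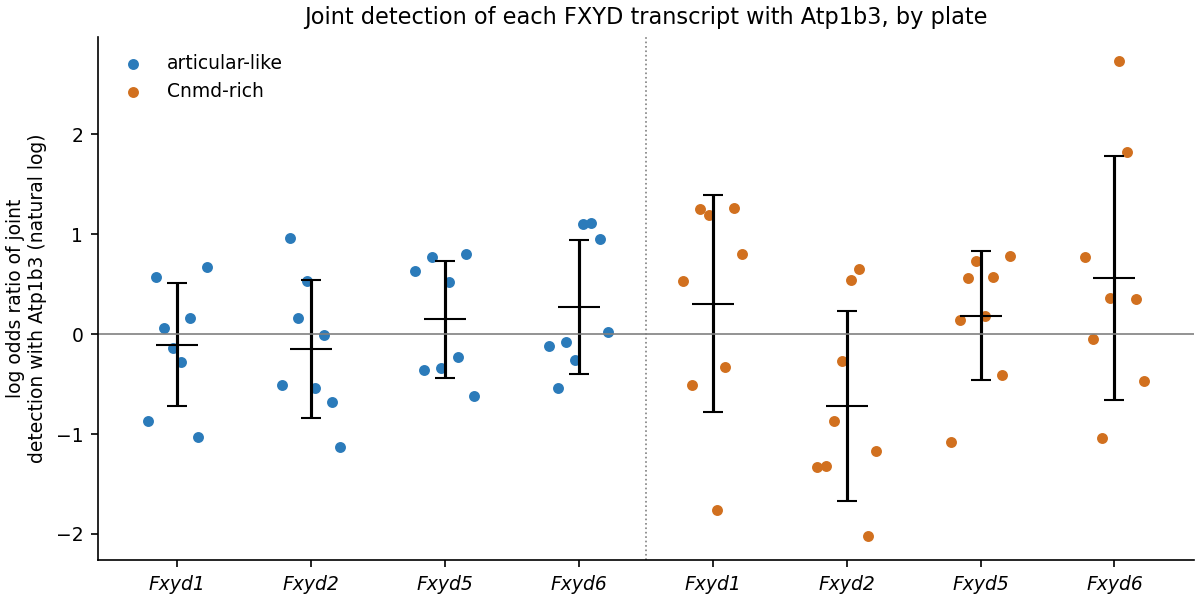
Log odds ratio (natural log, vertical axis, 0 means independent) of finding a FXYD transcript together with *Atp1b3* in the same thinned cell, by FXYD gene and cell group. Points are plates and bars the mean and SD. The plates scatter on both sides of 0 for every pair, and *Fxyd2* in *Cnmd*-rich cells has the lowest mean, -0.72.

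Of the other FXYD genes, 1 was tested, between lineages and between groups. This gene and the lists below were chosen with earlier results of these data known. Their p-values therefore describe these plates and are no independent test. Between groups, the cells were also split by counts from the same cells. *Fxyd3*, a regulator known from stomach and colon, was higher in articular-like cells (474 ± 233 against 166 ± 92.2 CPM, n = 8 each), with a log2 difference of 1.65 (SE 0.39, adjusted p = 0.0024 in edgeR's quasi-likelihood test, adjusted by Benjamini-Hochberg) and a higher value on 8 of 8 plates. Without the cells that held osteoblast or haematopoietic transcripts the difference was 2.34. Its articular-like level was 159, 229 and 269 CPM on plates 1, 2 and 4 and 763, 642, 588, 556 and 735 CPM on plates 5 to 9, so plates of a single group lay far apart. Some members parted the same plates. *Cnmd*-rich *Fxyd2* was at 3706 to 4585 CPM on plates 1, 2 and 4 and 5967 to 8031 on plates 5 to 9. Articular-like *Fxyd1* was at 1019 to 1143 against 642 to 922 CPM, and articular-like *Fxyd6* at 498 to 541 against 251 to 489 CPM. In the other group of these members, and in both groups of *Fxyd5* and *Atp1b3*, these plates overlapped. The cause was not tested. *Fxyd3* had 352 UMIs in *Grem1-TdT* cells and none in *Lepr-TdT* cells, where it was called lower (adjusted p = 0.00065 by the same test). The exons of *Fxyd3* overlap *Lgi4* on the opposite strand.

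*Fxyd4* had 10, 18 and 1 UMIs and *Fxyd7* 7, 2 and 0 in articular-like, *Cnmd*-rich and *Lepr-TdT* cells. Neither was tested.

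Other ion pumps of the same fold, the P-type ATPases, were sparse, and 6 of 34 were tested between lineages. Of these, 1 was higher and 2 were lower in *Lepr-TdT*, at a median log2 difference of 0.48, beside -0.11 over all genes tested. Over all genes tested, 28.9% were called between lineages and 41.1% between groups, and nothing is read from the counts of the lists. *Atp2b1*, a calcium pump of the plasma membrane, was at 187 ± 6.23 CPM in *Lepr-TdT* and 704 ± 93.4 CPM in *Grem1-TdT* plates (log2 difference -1.69, SE 0.27, adjusted p = 0.00026 in edgeR's quasi-likelihood test). It was the 1 gene of the list tested between the *Grem1-TdT* groups, and it was higher in articular-like cells (798 ± 195 against 508 ± 132 CPM, log2 difference 0.83, SE 0.18, adjusted p = 0.0010, same test). *Atp2a2*, the calcium pump of the endoplasmic reticulum, was lower in *Lepr-TdT* at a log2 difference of -2.17 (SE 0.51, adjusted p = 0.0046). *Atp13a3*, linked to polyamine transport and below 50 CPM, was the 1 gene higher in *Lepr-TdT* (2.90, SE 0.83, adjusted p = 0.015), and it is named after its values were seen.

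Genes known to bind or regulate the pump numbered 13, of which 7 were tested between lineages (1 higher, 2 lower in *Lepr-TdT*, median log2 difference 0.0077). Over all genes tested, 28.9% were called there. Between groups 1, *Cfl1*, was tested and was not called. *Cav2*, a caveolin gene, had 1 UMI in *Lepr-TdT* and 77 in *Grem1-TdT* cells (adjusted p = 0.016 in edgeR's quasi-likelihood test), and *Ahcyl1*, which binds the inositol trisphosphate receptor, had a log2 difference of -1.61 (SE 0.58, adjusted p = 0.049, same test). Without the cells that held osteoblast or haematopoietic transcripts neither passed (*Cav2* adjusted p = 0.074, *Ahcyl1* log2 difference -0.89, adjusted p = 0.34, same test). *Cav2* also did not pass without *Lepr-TdT* plate 2, and *Ahcyl1* did not without either *Lepr-TdT* plate. *Add3*, an adducin gene of the membrane skeleton, was higher in *Lepr-TdT* (2.23, SE 0.74, adjusted p = 0.032, same test) at a level below 50 CPM and is named after its values were seen.

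Water, chloride and acid-base genes numbered 27, of which 9 were tested between lineages (1 higher, 3 lower in *Lepr-TdT*, median log2 difference -0.46). Between groups 4 were tested (2 higher, 1 lower in articular-like cells, median 0.77, beside 0.017 over all genes tested). The shares called over all genes tested were 28.9% between lineages and 41.1% between groups. *Car12*, a membrane-bound carbonic anhydrase gene, followed the order of *Fxyd2*: it was at 740 ± 184 CPM in *Cnmd*-rich and 124 ± 83.4 CPM in articular-like cells (log2 difference -2.40, SE 0.31, adjusted p = 3.6e-06 in edgeR's quasi-likelihood test). In *Lepr-TdT* it was at 44.2 ± 17.0 CPM against 533 ± 148 CPM over whole *Grem1-TdT* plates (-3.35, SE 0.51, adjusted p = 0.00018, same test). *Car3*, a cytosolic carbonic anhydrase gene of muscle and fat, was the 1 gene of the list higher in *Lepr-TdT*, at 591 ± 57.8 against 28.2 ± 24.6 CPM (4.58, SE 0.45, adjusted p = 2.6e-06). *Car8*, a carbonic anhydrase relative without enzyme activity, had no UMI in *Lepr-TdT* and 81 in *Grem1-TdT* cells (adjusted p = 0.0083). *Clic4* and *Clic1*, intracellular chloride channel family genes, were higher in articular-like cells at log2 differences of 1.11 (SE 0.21, adjusted p = 0.00032) and 1.19 (SE 0.23, adjusted p = 0.00042), and *Clic4* was lower in *Lepr-TdT* (-2.59, SE 0.51, adjusted p = 0.0012), all by the same test.

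The genes whose pattern over the 18 plate and group sums was most like each member were found by Pearson's r of log2(CPM + 10) among 2590 genes. For *Fxyd2* they were *Col11a2* (0.990), *Col9a1* (0.989), both cartilage collagen genes, and the non-coding *Gas5* (0.974). For *Fxyd5* they were *Dcn* (0.942), *Clu* (0.938) and *Crip2* (0.922), and for *Fxyd1* *Clu* (0.869), *Gas1* (0.862) and *Fhl1* (0.862). *Fxyd6* was most like *Cdc42ep3* (0.935), *Bag3* (0.928) and *Fibin* (0.926), and *Atp1b3* most like *1810055G02Rik* (0.878), *Fdx1* (0.858) and *Clec3a* (0.854). Over the 8 articular-like sums alone, r was 0.907 for *Fxyd1* with *Clu* but -0.539 with *Gas1* and -0.131 with *Fhl1*, and it was 0.408, 0.356 and 0.0173 for *Fxyd5* with *Dcn*, *Clu* and *Crip2*. For *Fxyd2* it was 0.722 to 0.888. The points share plates, depth and scaling, and *Clu* was used to split the cells.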

How the data were processed

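Transcripts of single sorted cells were counted on 8 *Grem1-TdT* and 2 *Lepr-TdT* plates. The deposited values are raw UMI counts per gene and well, made by the authors on mm10. The submitters' processing notes name UMI-tools, STAR, featureCounts, SAMtools and Seurat, without roles, and the study's methods name Cell Ranger for its single-cell data. The *Grem1-TdT* table was used up to its last complete gene row (29183 genes, 1 incomplete row left out), so the comparisons cover these genes, which hold 40.9% of the *Lepr-TdT* UMIs. The 6 members and all gene lists were chosen with earlier results of these data known.

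Wells with under 350 genes, counted over the genes listed for their own lineage, were left out and doublets were not called. The counts were summed per plate, or per plate and cell group. Levels by cell group are CPM after TMM scaling over all 18 sums, whole-plate levels over the 10 plate sums, and values of list genes come from the scaling of their own comparison. Fits used edgeR 4.0.16 (R 4.3.3; quasi-likelihood test, Benjamini-Hochberg adjustment over all genes tested) with edgeR's filter on low counts and a threshold of 0.05. Differences between lineages are *Lepr-TdT* minus *Grem1-TdT*, and those between groups articular-like minus *Cnmd*-rich. Alternatives were DESeq2 1.42.0, other size factors, other filters and other well limits, other splits of the cells, and leaving out each plate. Scaling to library size only, levels without plate 9, pairs of FXYD genes and leaving out cells with osteoblast or haematopoietic transcripts were added after seeing the data. Without TMM scaling the median log2 difference of all genes was 0.35 in place of -0.11 between lineages and -0.34 in place of 0.017 between groups. The members and the other FXYD and beta subunit genes are named throughout, and genes of the other lists where called with a mean of at least 50 CPM over the comparison's sums, at most 5 per list and comparison by size of the difference, and others are named as chosen after their values were seen. Plates are the replicates. Since the number of mice per plate is not given, p-values measure the spread between plates only, which may be technical.

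Cell groups of the same plate are different wells of that plate, and their sums deviated together (2467 genes, r of 0.143 to 0.313 within a plate, mean 0.246, over 0.1 in 8 of 8, against -0.0353 between plates). Joint detection was tested on cells thinned to 529 UMIs with scipy 1.17.1. Sequences were read from GRCm38 with GENCODE vM21. Self-tests on simulated data preceded each test. In them edgeR recovered 61% of genes changed by a log2 of 2 between lineages and 78.5% between groups. That of joint detection used plates of articular-like size and detection rates other than those found here. It therefore does not give the power of the joint detection tests. Some results of the lists are not reported here.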

Additional observations from a re-analysis of the deposited data

Results flagged for a closer look

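Of 15 sets of plate values examined, chance alone would set apart about 1 in 20. *Fxyd2* in the articular-like cells of plate 9 stood apart from the other 7 plates: it was at 4130 CPM, the next plate was at 1881 CPM, and the gap was 0.629 of the whole range, above the limit of 0.526 for 8 values. Wells left out for having under 350 genes also held *Fxyd2*. It had 91 UMIs in 43 of these 84 *Grem1-TdT* wells, among 39804 UMIs of all genes there, and none in any of the 162 *Lepr-TdT* wells. *Fxyd1*, *Fxyd5*, *Fxyd6* and *Atp1b3* had 31, 66, 14 and 10 UMIs in the same wells.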

How the results depend on the processing

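Directions of *Fxyd1*, *Fxyd2*, *Fxyd5*, *Fxyd6* and *Atp1b3* between lineages and between cell groups were the same under all alternatives run. The lineage count of 851 became 529 without *Lepr-TdT* replicate 2 (leave-one-out range 529 to 849) and 436 of 1915 genes on plates 1 and 2 alone with plate number as a replicate block. The same plates without the block gave 451, and those plates share only a number. The group count of 440 became 706 of 12510 genes without a filter on low counts, 380 to 437 leaving out each plate, and 499 with the replicate block by plate, which changed no call of a gene named here. Without TMM scaling the lineage fit called 996 genes (681 higher, 315 lower in *Lepr-TdT*, against 358 and 493) and the group fit 523 (130 higher, 393 lower in articular-like cells, against 224 and 216). DESeq2 called 761 and 417.

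The lineage difference of *Fxyd5* lost its call without TMM scaling (-0.63) and without *Lepr-TdT* replicate 2 (-0.81), and that of *Atp1b3* without *Lepr-TdT* replicate 1 (-1.33). The group difference of *Atp1b3* lost its call without TMM scaling (0.27), without a filter (0.44) and without replicates 4, 7 or 9 (0.54 to 0.57). *Fxyd1* between lineages was called when only the 350 genes were required among the shared genes (-0.80). Between lineages *Atp2a2* lost its call without *Lepr-TdT* replicate 2 and on plates 1 and 2 alone, and *Car8*, *Atp13a3* and *Add3* lost theirs without either *Lepr-TdT* plate. Between groups *Atp2b1* lost its call without a filter (0.64). *Clic1* between lineages reversed to 0.16 without TMM scaling. The level of *Fxyd1* in *Lepr-TdT* was 493 CPM without TMM scaling. The causes were not tested. The members were chosen on these contrasts, so nothing is read from whether a member was called.

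The mean log odds ratio with *Atp1b3* changed sign without thinning for *Fxyd1* (-0.31), *Fxyd2* (0.11) and *Fxyd5* (-0.27) in *Cnmd*-rich and *Fxyd2* (0.18) in articular-like cells. With thinning to the 25th percentile it did so for *Fxyd2* (0.0035) and *Fxyd5* (-0.30) in *Cnmd*-rich and *Fxyd5* (-0.16) in articular-like cells, and with another random seed for *Fxyd5* (-0.65) in *Cnmd*-rich and *Fxyd2* (0.26) and *Fxyd6* (-0.22) in articular-like cells. *Fxyd1* in articular-like cells ran from -0.22 to 0.027 leaving out each plate. None of the 8 pairs passed in any of these. Depth limits these values: cells were thinned to 529 UMIs, and *Lepr-TdT* cells, with a median of 505 UMIs, gave no tested pair. Among pairs of FXYD genes, 4 passed with 1 added to each cell of the counts, against 0.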

Other observations

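Pairs of FXYD genes in the same cell were examined after the data were seen, in 12 tests by the same sign-flip test on thinned cells. For *Fxyd1* and *Fxyd6* in articular-like cells the mean log odds ratio was 0.41 ± 0.28 (SD, n = 8), above 0 on 8 of 8 plates, with an exact permutation p of 0.0078, the smallest that 8 plates can give. It did not pass adjustment over the 12 tests (adjusted exact permutation p = 0.094), and it rested on the draw: with another random seed the mean was 0.072 (5 of 8 plates above 0, exact permutation p = 0.79), with thinning to the 25th percentile 0.072 (3 of 8, exact permutation p = 0.63), and without thinning 0.25 (7 of 8, exact permutation p = 0.086). Of 413 cells, 35 had both, 103 *Fxyd1* alone, 52 *Fxyd6* alone and 223 neither. In *Cnmd*-rich cells the mean for *Fxyd1* and *Fxyd2* was -0.80 (exact permutation p = 0.047, adjusted p = 0.26, n = 8). None of the 12 passed, and 2 had an unadjusted exact permutation p under 0.05.

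In *Lepr-TdT* cells, on 2 plates, 13 unthinned cells had both *Fxyd1* and *Fxyd5*, 29 *Fxyd1* alone, 27 *Fxyd5* alone and 91 neither, a mean log odds ratio of 0.42 with no test. These cells were not brought to one depth, and those with osteoblast or haematopoietic transcripts were included. The part of either in this value was not tested.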
